A study of Mus musculus with 8 samples.

Results

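The regions described here are the stretches of the mouse X chromosome that carried almost no H3K27me3 peak in female neural stem cells with 1 working conditional allele of Smchd1. The X was divided into fixed windows of 100 kb from position 1 (build mm10), and a window was called bare when peaks covered under 1% of its bases in both control libraries. By this rule 486 of 1709 windows were bare (28.4%, or 48.6 Mb). The same rule kept 18698 of 24595 autosomal windows (76.0%). The control libraries chose the windows, so their values in them are given only as a description. The libraries with both alleles deleted were not used by the rule.

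Neural stem cell lines were made from E14.5 female embryos that carried 1 deleted and 1 floxed allele of Smchd1 (del/fl), on a mixed C57BL/6, 129 and Castaneus background. In all lines the X from the mother was of 129 origin with a deltaA allele of Xist, and the X from the father was Castaneus. Each line was divided after it was established. Some cells received a retrovirus with Cre recombinase and puromycin resistance, were put under puromycin 24 hours later and were harvested 7 days after transduction (del/del), while the rest stayed untransduced (del/fl). There were 2 H3K27me3 libraries per genotype, each with its own whole-cell extract. They are called del/del 1 and 2 and del/fl 1 and 2 here. Since transduction and puromycin were given to del/del cells alone, deletion and transduction cannot be told apart. Libraries of both genotypes can share a line, and which ones do is not stated. Nothing in the labels makes the libraries separate embryos, so a p-value here reflects the spread of these libraries, which may be technical. The peak lists are not separated by allele, so every value is for both X chromosomes together. Lists of H3K27me3 peaks contain no expression values, and neither the identity of the cells nor the loss of Smchd1 was checked with them.

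The peak caller used between 11793402 and 14064030 H3K27me3 tags and between 15525700 and 31629404 control tags per library, and the lists held 32971 to 45566 peaks. Control tags differed more between the libraries than H3K27me3 tags did, with 20770551 and 31629404 in del/del, compared with 19579060 and 15525700 in del/fl. The part of this difference in the results was not tested.

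H3K27me3, trimethylation of lysine 27 of histone H3, is placed by Polycomb repressive complex 2. In female mammals Xist RNA coats 1 X chromosome, and H3K27me3 spreads over much of it, most densely over regions rich in genes. Smchd1 is a noncanonical SMC protein that gathers on the inactive X and is needed for the silencing of many genes there. The mouse X also carries large families of multicopy genes that are used mainly in male germ cells. Several of them lie in long repeated arrays.

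The promoters below, read from RefSeq on GRCm38.p6 (300 bases around an annotated start of the gene), show the kinds of sequence met in bare windows and, for contrast, in marked ones. The first pair is from bare windows. Slx, a spermatid gene whose protein is related to the synaptonemal complex protein Sycp3, starts in the second longest bare block, and its promoter is at chrX:26545516-26545815 on the minus strand. Gm2030, a predicted gene with the most similar promoter, is at chrX:26309995-26310294 on the minus strand. Both promoters lie in windows with 0% cover in all 4 libraries. They have the same length, and capitals mark the 13 bases that differ between them (95.7% identity).
Slx: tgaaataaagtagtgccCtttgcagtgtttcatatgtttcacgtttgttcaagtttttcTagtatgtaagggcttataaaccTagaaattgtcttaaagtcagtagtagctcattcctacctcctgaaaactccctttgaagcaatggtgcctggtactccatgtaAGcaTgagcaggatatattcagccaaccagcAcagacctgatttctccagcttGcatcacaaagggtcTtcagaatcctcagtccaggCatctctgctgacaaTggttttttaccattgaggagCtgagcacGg
Gm2030: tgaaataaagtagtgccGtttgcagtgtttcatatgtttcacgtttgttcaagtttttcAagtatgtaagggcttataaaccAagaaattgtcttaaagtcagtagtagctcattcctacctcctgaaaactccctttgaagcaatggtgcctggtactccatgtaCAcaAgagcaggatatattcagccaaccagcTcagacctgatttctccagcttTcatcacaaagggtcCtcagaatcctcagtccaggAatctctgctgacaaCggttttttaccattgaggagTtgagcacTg
The second pair comes from marked windows, also from a multicopy cluster. Rhox2a and Rhox2c belong to the reproductive homeobox cluster, and their promoters are at chrX:37244742-37245041 and chrX:37453409-37453708 on the plus strand. They are 99.7% identical, and capitals mark the 1 base that differs.
Rhox2a: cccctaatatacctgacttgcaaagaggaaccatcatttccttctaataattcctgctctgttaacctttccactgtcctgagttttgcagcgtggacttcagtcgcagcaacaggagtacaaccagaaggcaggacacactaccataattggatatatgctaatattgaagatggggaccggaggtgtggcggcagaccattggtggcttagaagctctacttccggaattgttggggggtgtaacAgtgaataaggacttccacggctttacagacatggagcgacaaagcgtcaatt
Rhox2c: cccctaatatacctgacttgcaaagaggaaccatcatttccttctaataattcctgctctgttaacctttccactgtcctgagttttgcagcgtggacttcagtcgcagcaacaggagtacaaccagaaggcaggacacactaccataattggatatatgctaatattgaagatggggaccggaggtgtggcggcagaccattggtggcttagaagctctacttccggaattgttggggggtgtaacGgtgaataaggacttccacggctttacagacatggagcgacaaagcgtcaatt
The Rhox2a window had 63.8% and 68.2% cover in del/del 1 and 2, compared with 44.4% and 46.2% in del/fl 1 and 2. The Rhox2c window was 86.4% and 86.4% covered in del/del, compared with 67.9% and 73.9% in del/fl. Near-identical promoters were thus found in both bare and well-marked windows, which says nothing of how well tags map to either.
The last promoter is rich in CpG dinucleotides, had no copy at 90% identity among the RefSeq promoters, and comes from a bare window of another kind. Suv39h1 encodes a methyltransferase for lysine 9 of histone H3. The promoter shown is at chrX:8074312-8074611 on the minus strand, and capitals mark its 37 CpG dinucleotides. It was picked as the Suv39h1 promoter with the most CpGs, and it lies inside the annotated gene (chrX:8061171-8074760). The promoter at the outer start of the gene, chrX:8074711-8075010, has 15.
Suv39h1: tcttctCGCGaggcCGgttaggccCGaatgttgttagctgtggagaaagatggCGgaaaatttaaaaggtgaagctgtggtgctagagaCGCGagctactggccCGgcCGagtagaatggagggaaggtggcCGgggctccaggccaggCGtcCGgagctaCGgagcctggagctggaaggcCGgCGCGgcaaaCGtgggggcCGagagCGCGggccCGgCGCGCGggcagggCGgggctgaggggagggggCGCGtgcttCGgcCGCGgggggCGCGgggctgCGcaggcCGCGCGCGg
The Suv39h1 window was covered to 1.49% and 6.62% in del/del 1 and 2, compared with 0% and 0.927% in del/fl 1 and 2. The body of Suv39h1 itself was at 0% in each library.

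The bare windows fell into 42 blocks of neighbouring windows, and a few long blocks held most of them. There were 19 blocks of 1 window, 15 of 2 to 9 and 8 of 10 or more. The 8 blocks of 10 or more windows held 415 of the 486 bare windows (85.4%), and the 5 longest held 370 (76.1%). Along the chromosome the share of bare windows was uneven. It reached 96% of the windows from position 120000001 to 130000000 and was 0% from 40000001 to 50000000, from 130000001 to 140000000 and from 160000001 to 170000000. The first 10 Mb were 68% bare, and the stretch from 20000001 to 30000000 was 70% bare.

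The longest block, chrX:113600001-126700000, had 131 windows and ran from Dach2, a transcriptional cofactor gene, to Gm7746. It held 21 protein-coding genes in 13.1 Mb, and 57 of its windows had no annotated gene. Among its genes were Pcdh11x, a protocadherin gene, Klhl4, a kelch-like gene, Pabpc5, a poly(A)-binding protein gene, and Nap1l3, of the nucleosome assembly protein family. Testis genes in it were the short histone H2A variants H2ab1, H2ab2 and H2ab3 and the homeobox genes Tgif2lx1 and Tgif2lx2. It also held Srsx, the claudin-like genes Cldn34c1, Cldn34c2 and Cldn34c3, and Vmn2r121, a vomeronasal receptor gene. No library had a peak in 81 of the 131 windows. Mean cover of the block was 0.154% and 0.514% in del/del 1 and 2, compared with 0.0177% and 0.0497% in del/fl 1 and 2. A further block of 29 windows, chrX:126800001-129700000, lay 1 window beyond it and ran from 4932411N23Rik to Gm18176, with Cldn34c4. That block had 0.107% and 0.228% cover in del/del. The 1 window between these blocks was covered to 9.27% and 22.7% in del/del, compared with 3.16% and 2.66% in del/fl.

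The second longest block, chrX:23700001-35700000, had 120 windows from Wdr44 to Gm14819. Of its 52 protein-coding genes, 30 were Gm-numbered predictions, which include relatives of Slx by promoter sequence. A further 17 were Btbd35f genes, a family named for its BTB domain, such as Btbd35f22, Btbd35f13 and Btbd35f8. It also held Slx and 3 Spin2 genes, relatives of the histone reader spindlin (Spin2e, Spin2f and Spin2g). There was no peak in any library in 71 windows, and 2 windows were at 1% or more in both del/del libraries. Mean cover was 0.0952% and 0.165% in del/del 1 and 2.

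The block at the start of the chromosome, chrX:1-6000000, had 60 windows. Its first 30 windows lay before the first annotated gene, which starts at position 3076920, and no list had an X peak before position 3255651. How much of these windows can be read or mapped was not measured, since no genome sequence was used here. The annotated rest ran from Btbd35f23 to Gm14450 and held 14 protein-coding genes: 12 of the Btbd35f family, including Btbd35f3, Btbd35f4 and Btbd35f7, then Spin2-ps1 and Mycs, a Myc-family gene. Cover of the block was 0.147% and 0.211% in del/del.

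The block chrX:88500001-91500000 had 30 windows from Gm8864 to Gm8914, with 9 protein-coding genes that included Mageb2, of the melanoma antigen family. It was the most covered of the 5 longest blocks in del/del, at 0.631% and 2.35%, and 2 of its windows had no peak in any library. Just past it, chrX:91600001-92100000 held Mageb17-ps, Mageb5 and Mageb1 in 5 windows, at 1.74% and 5.07% in del/del. The 1 window between them, chrX:91500001-91600000, was the single X window under 1% in both del/del libraries that was not bare by the rule. Its cover was 0.912% and 0.685% in del/del, compared with 1.13% and 0.517% in del/fl.

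Shorter blocks held other families. The 10 windows of chrX:153900001-154900000 held 7 Samt genes, which encode membrane proteins of spermatogenesis, and were 0.163% and 0.647% covered in del/del. The 6 windows of chrX:8300001-8900000 held 10 Ssx genes, whose human relatives are cancer-testis antigens, and were 1.33% and 1.76% covered. Slxl1, related to Slx, lay with 11 other protein-coding genes in chrX:54300001-55600000, a block of 13 windows at 0.682% and 2.14%. The 22 windows of chrX:14300001-16500000 held no protein-coding gene and were at 0.377% and 2.20%. The last 9 windows, chrX:170000001-170900000, held Asmt, the gene for the last enzyme of melatonin synthesis, and their mean cover was 0.0359% and 0% in del/del. Of these 9 windows, 7 had no annotated gene and 7 had no peak in any library. The span used ended at position 170810027, inside the last window. How much of this block can be read or mapped was not measured.

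A small group of bare windows differed in content from the multicopy blocks. The 2 windows of chrX:8000001-8200000 held 8 protein-coding genes: Suv39h1; Was, an actin regulator of blood cells; Rbm3, a cold-inducible RNA-binding protein gene; Porcn, needed for Wnt secretion; Ebp, a sterol isomerase gene; and Glod5, Wdr13 and Tbc1d25. Of the windows that stood alone, 3 had 0% cover in all 4 libraries. They held part of Kdm6a, an H3K27 demethylase gene known to escape X inactivation (chrX:18200001-18300000), parts of Jpx and Ftx, noncoding genes of the X inactivation centre (chrX:103500001-103600000), and part of Atg4a, an autophagy protease gene (chrX:141000001-141100000). The windows beside the Jpx and Ftx one were covered to between 47.8% and 55.9% over both sides and the 4 libraries, and those beside the Atg4a window to between 35.8% and 97.1%. Both were thus lone gaps among marked windows in every library. The windows beside the Kdm6a one had less cover, from 0% to 9.89%.

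Most of the windows that were bare in del/fl also had little cover in del/del. Their mean cover was 0.467% and 1.28% in del/del 1 and 2 (0.874 ± 0.575, SD, n = 2) and 0.0403% and 0.0835% in del/fl 1 and 2. Had del/fl 1 alone chosen the windows, the del/del mean would have been 1.72%. The other 1223 windows of the X were covered to 67.4% and 74.2% in del/del, compared with 44.0% and 49.8% in del/fl. No library had a peak in 233 bare windows, and 155 had one only in del/del. Of the 486 windows, 56 were at 1% or more in both del/del libraries, 122 in at least 1 of them, 7 at 5% or more in both, and 2 at 10% or more in both. The highest cover of a bare window was 14.7% in del/del 1 and 24.2% in del/del 2. The del/del mean was above the del/fl mean in 227 bare windows, below it in 26 and equal in 233, and the differences ran from -0.63 to 17.6 percentage points. Both del/del libraries were above both del/fl libraries in 99 bare windows (20.4%), beside 74.9% of all X windows, and both were below in 2, beside 0.176%. Because low del/fl cover chose the windows, a rise from del/fl to del/del in them is partly fixed by the choice and nothing is read from it. With limma over the 13985 windows of the genome that had a peak in any library, 25 of the 253 bare windows with a peak passed an adjusted p of 0.05 as higher in del/del, beside 7.04% of all tested windows and 64.6% of tested X windows, and 0 passed as lower, beside 0.0858%. At an unadjusted p of 0.05, 71 bare windows were higher and 0 lower. Of the 253, 155 had a peak in del/del alone, so they entered the fit only through the group where they were higher. These counts are therefore partly fixed by the filter as well as by the rule, and nothing is read from them. The 25 became 142 and 68 without del/del 1 and 2, and 2 and 1 without del/fl 1 and 2, so no window is called from this fit.

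The 5 bare windows with the highest mean del/del cover all lay at or next to an edge of a block. First was chrX:65900001-66000000, which held the noncoding gene or pseudogene Gm14668 and was covered to 11.9% and 24.2% in del/del, compared with 0.265% and 0.749% in del/fl. Second was chrX:147600001-147700000, with no annotated gene, at 14.7% and 18.3% in del/del. The next pair, chrX:81100001-81200000 and chrX:22600001-22700000, had no gene either and reached 6.27% and 21.6%, and 8.33% and 17.8%. The fifth, chrX:113700001-113800000, lay inside Dach2 and reached 8.94% and 14.3%.

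The threshold cut through a continuous range of low values. Just inside were chrX:8800001-8900000 (0.997% and 0.328% in del/fl, with Ssxb5), chrX:14100001-14200000 (0% and 0.995%) and chrX:64800001-64900000 (0% and 0.978%). Just outside were chrX:64500001-64600000 (0.189% and 1.00%), chrX:23400001-23500000 (1.03% and 0.543%) and chrX:88300001-88400000 (0% and 1.04%). In del/del the first 3 were at 6.05% and 8.97%, 2.60% and 1.90%, and 4.71% and 9.86%. The 3 outside were at 5.55% and 7.63%, 0.205% and 4.03%, and 2.38% and 6.92%.

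Peaks that touched bare windows were few and short, which in del/fl follows from the rule. They numbered 384 and 878 in del/del 1 and 2, compared with 47 and 98 in del/fl 1 and 2. Their median length was 467.5 and 574.5 bp in del/del, compared with 374 and 353.5 bp in del/fl. Peaks elsewhere on the X had medians of 1910 and 2268 bp in del/del, compared with 1373 and 1463 bp in del/fl. The authors' fold enrichment over background had medians of 3.03 and 2.82 in del/del, compared with 3.06 and 2.90 in del/fl for the peaks in bare windows, beside 3.54 and 3.32, and 3.42 and 3.26, for peaks elsewhere on the X.

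Each library was then read alone, so that no set of members was needed. The number of X windows under 1% was 430 and 372 in del/del 1 and 2, compared with 534 and 495 in del/fl 1 and 2. Both del/del libraries had fewer such windows than both del/fl libraries (401 ± 41.0 against 514.5 ± 27.6, SD, n = 2 each). The two-sided exact permutation p was 0.333, the smallest that 2 against 2 libraries allow. The windows bare in del/del were nearly all among those bare in del/fl. Of the 365 windows under 1% in both del/del libraries, 364 were also bare in del/fl (99.7%), and these were 74.9% of the 486.

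The bare state was next read in libraries that had not chosen it. Windows under 1% in del/fl 1 (534) were still under 1% in 91.0% of cases in del/fl 2, 80.0% in del/del 1 and 69.5% in del/del 2. Windows chosen in del/fl 2 (495) were under 1% in 98.2% of cases in del/fl 1, 85.9% in del/del 1 and 75.2% in del/del 2. For both del/fl choices, the other del/fl library kept more windows bare than either del/del library did. Windows chosen in del/del 1 (430) were under 1% in 84.9% of cases in del/del 2, 99.3% in del/fl 1 and 98.8% in del/fl 2. Those chosen in del/del 2 (372) were under 1% in 98.1% of cases in del/del 1, 99.7% in del/fl 1 and 100% in del/fl 2. For both del/del choices, each del/fl library thus kept more windows bare than the other del/del library did. How bare a window was in del/fl 1 went with its del/del cover. The 460 windows with no peak at all in del/fl 1 averaged 0.141% in del/fl 2 and 0.458% and 1.23% in del/del 1 and 2. The 48 windows at 1 to 2% in del/fl 1 averaged 3.22% in del/fl 2 and 13.8% and 24.2% in del/del. The 96 windows at 5 to 10% averaged 11.9% in del/fl 2 and 35.1% and 48.9% in del/del. In each of these groups both del/del libraries were above del/fl 2, the control library that had not chosen the windows.

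**Figure D1:**
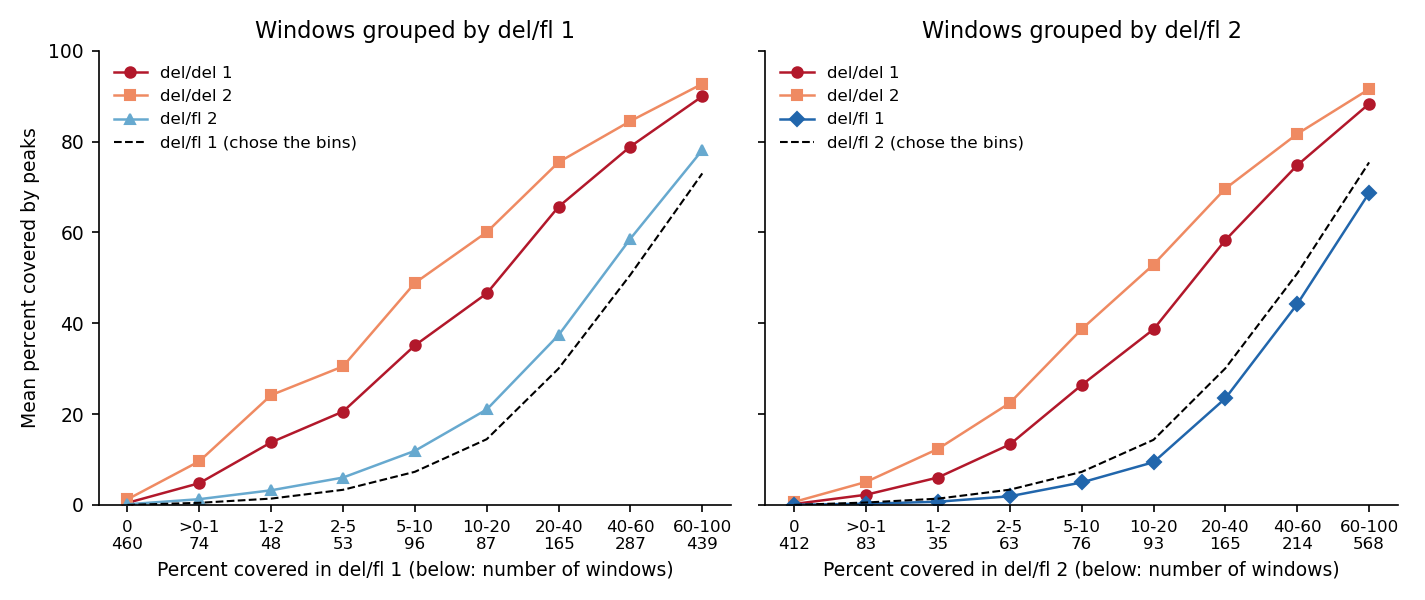
Mean percent of X windows covered by peaks (vertical axis, percent) in each library that did not choose the groups, for windows grouped by their percent covered in del/fl 1 (left) or del/fl 2 (right). Numbers under the axis count windows, and the dashed line is the library that made the groups. At 0% in del/fl 1 the del/del libraries averaged 0.458% and 1.23%, and at 5 to 10% they averaged 35.1% and 48.9%.

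The length of the block and the place of a window in it went with its cover in del/del. Lone bare windows averaged 3.34% and 7.44% in del/del 1 and 2, and 68.4% of them (13 of 19) were at 1% or more in both. Windows in blocks of 2 to 9 averaged 1.58% and 4.26%, and 46.2% (24 of 52) were at 1% or more in both. Windows in blocks of 10 or more averaged 0.196% and 0.626%, and 4.58% (19 of 415) were at 1% or more in both. In del/fl these 3 groups averaged 0.224% and 0.349%, 0.116% and 0.265%, and 0.0224% and 0.0486%, so the order was the same below the threshold that chose them.

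**Figure D2:**
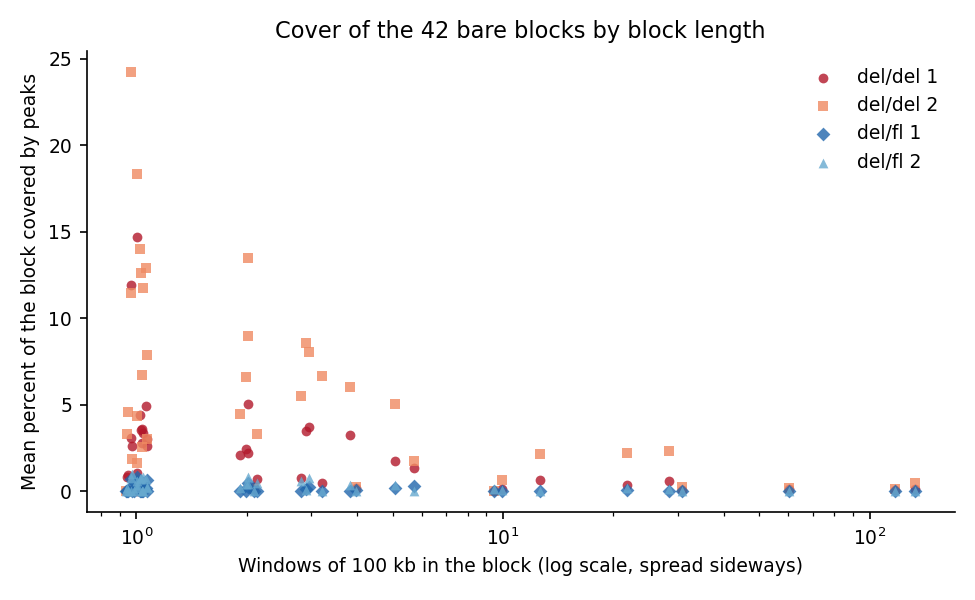
Mean percent of each of the 42 bare blocks covered by peaks (vertical axis, percent) against the number of 100-kb windows in the block (horizontal axis, log scale, points spread sideways), 1 point per block and library. Cover above 5% was found in del/del in blocks of at most 5 windows, and the blocks of 10 or more windows averaged 0.196% and 0.626% there.

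Cover in del/del also went with distance from a block's edge. This overlaps with block length, since every window of a block of 1 or 2 windows is an edge window. The 63 bare windows at an edge averaged 2.34% and 6.09% in del/del 1 and 2, compared with 0.174% and 0.330% in del/fl 1 and 2. Windows 1 step further in (28) averaged 1.09% and 2.72% in del/del, and those more than 10 windows inside (282) averaged 0.0677% and 0.207%. On the other side of the edge, the first window outside (62) averaged 12.9% and 18.9% in del/del, compared with 6.28% and 7.52% in del/fl. At 5 windows outside (28) the means were 61.8% and 71.3% in del/del, compared with 32.6% and 40.1% in del/fl, and over 20 windows away (666) they were 74.6% and 80.4%, and 51.4% and 57.3%. Cover thus rose outward over at least 5 windows in each library. The 184 windows at 1 to 5 windows from a bare one averaged 40.8 ± 5.93% in the del/del libraries and 20.9 ± 3.16% in the del/fl ones (SD, n = 2 each), a difference of 19.9 percentage points. Farther away, 1039 windows averaged 72.9% and 79.4% in del/del, compared with 48.4% and 54.5% in del/fl. Distance was set from del/fl cover, so low del/fl values next to a block are partly due to the choice, and the difference is given with no test.

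**Figure D3:**
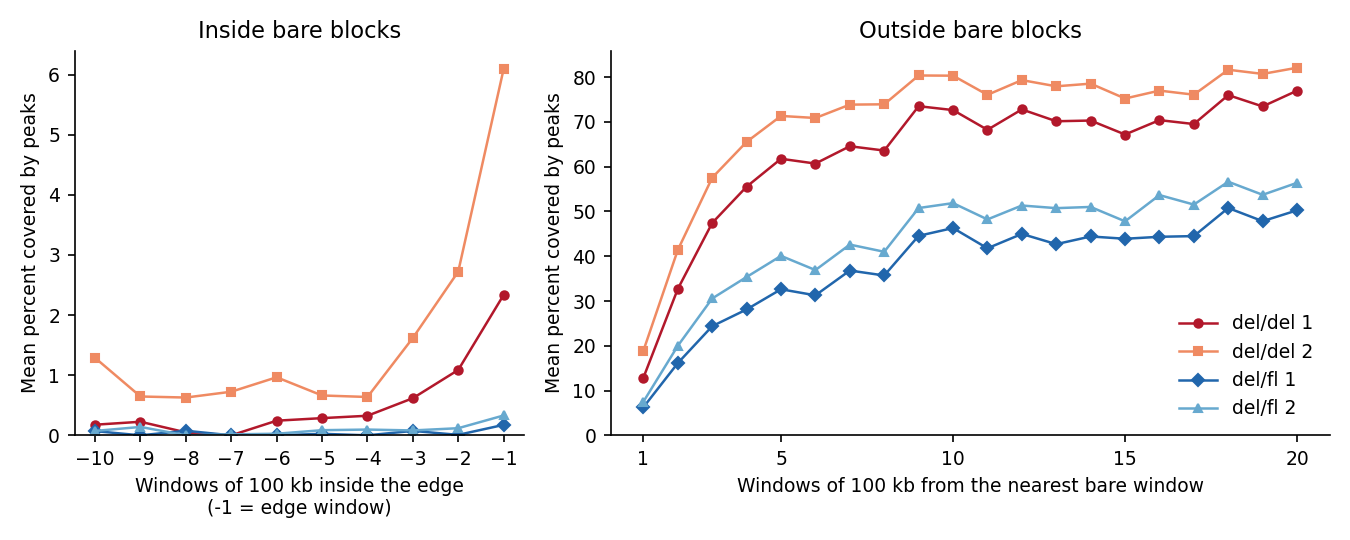
Mean percent covered by peaks (vertical axes, percent, on different scales) in each library at 1 to 10 windows inside the edge of a bare block (left) and at 1 to 20 windows from the nearest bare window (right). Edge windows averaged 2.34% and 6.09% in del/del, and the first window outside averaged 12.9% and 18.9%.

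The rule used no gene, so gene content is independent of it as a measure. Germline families were listed by gene symbol and not by expression, so all Mage genes were counted, with Maged1, Maged2, Mageh1, Magee1 and Magee2 among them. Each window was put in 1 class, and any gene of a listed germline family, pseudogenes included, put it in that class first. Of the windows with no such gene but with a protein-coding gene not numbered Gm, 38 of 709 were bare (5.36%), beside 28.4% of all X windows. Counted whatever else the window held, such unlisted genes lay in 735 windows, of which 39 were bare (5.31%). Windows with a gene of a listed germline family were bare in 65 of 136 cases (47.8%), and those whose protein-coding genes were all Gm-numbered predictions in 53 of 90 (58.9%). Windows with no annotated gene were bare in 143 of 346 cases (41.3%) and those with noncoding genes or pseudogenes alone in 157 of 398 (39.4%). All 30 windows before the first annotated gene were bare. Neighbouring windows share genes and blocks and are not independent, so these shares carry no test. Within the bare windows, the 38 with other protein-coding genes had the highest del/del means of these classes, 0.955% and 2.69%, and 26.3% of them were at 1% or more in both del/del libraries. In the other classes past the first annotated gene, that share was 9.23% to 12.7%. The 26.3% rested on 10 windows, of which 3 lay in Dach2 and 2 in Cfap47. Block length and place in a block, which also went with del/del cover, were not separated from gene content.

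**Figure D4:**
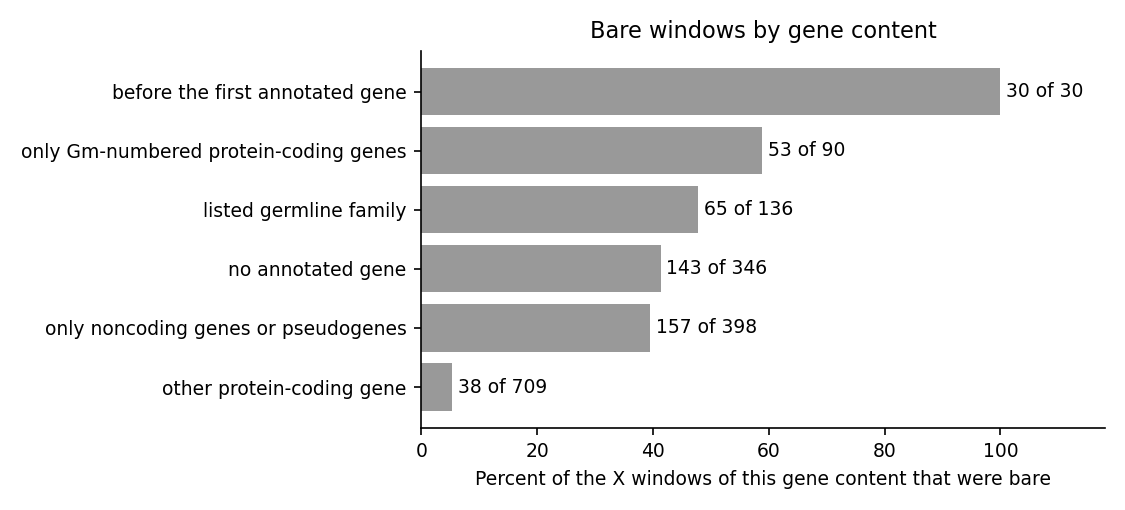
Percent of X windows of each gene content that were bare (horizontal axis, percent), with the counts beside the bars. Windows with other protein-coding genes were bare in 5.36% of cases, and those with Gm-numbered protein-coding genes alone in 58.9%.

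Of 963 protein-coding genes of the X, 165 touched a bare window and 155 lay wholly in bare windows (16.1%). The same held wholly for 48 of 285 lncRNAs (16.8%), 254 of 1007 pseudogenes (25.2%) and 4 of 92 miRNAs (4.35%). Of the 155 genes, 66 belonged to listed germline families, 64 were Gm-numbered and 25 had other symbols. No library had a covered base in 130 of them. Every one of the 29 Btbd35f genes lay in bare windows, in 2 separate blocks, and none had a covered base in any library. The same was true of both Slx genes. The Ssx family had 10 of 11 genes in bare windows (Ssxb1, Ssxb2 and Ssxb3 among them), Samt 7 of 8 (such as Samt1, Samt2 and Samt4), Spin2 4 of 6 and Cldn34 5 of 11. Some members outside them were marked. Samt3 was 100% covered in both del/del libraries and del/fl 2, and 36.0% covered in del/fl 1. Spin2c and Spin2d averaged 100% and 98.6% in del/del, compared with 38.6% and 57.8% in del/fl. Of the Mage family 4 of 20 genes lay in bare windows, and of the short H2A variants 3 of 18. The 15 H2A variants outside, all of the H2al type, averaged 91.7% and 93.3% in del/del, compared with 79.0% and 85.3% in del/fl.

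Other multicopy germline families had no gene in bare windows. None of the 33 Rhox genes did, and their bodies were on average 92.3% and 93.0% covered in del/del, compared with 68.7% and 79.5% in del/fl. None of the 10 Xlr genes, lymphocyte-regulated genes of the same superfamily as Slx, did either, at 90.6% and 95.8% in del/del, compared with 77.3% and 79.5% in del/fl. The 7 Fthl17 genes, ferritin-like testis genes, lay outside bare windows but had little cover, with body means of 13.7% for del/del 2 and 11.3% for del/fl 2 and values within 1 percentage point of these in the other library of each genotype.

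**Figure D5:**
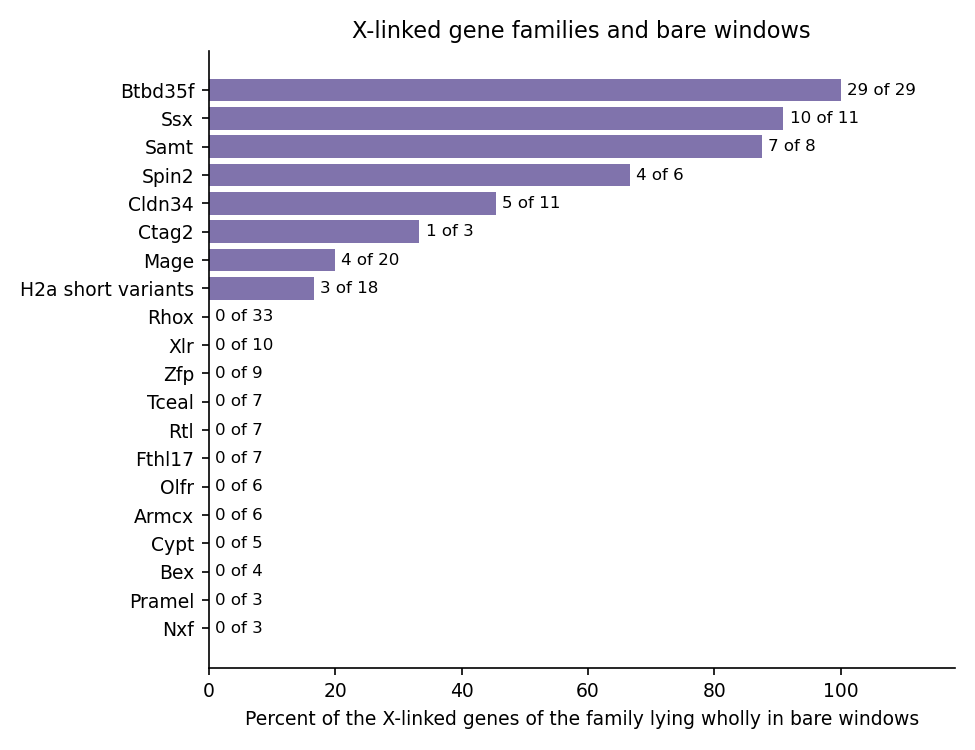
Percent of the X-linked protein-coding genes of each family that lay wholly in bare windows (horizontal axis, percent), for families with at least 3 genes and without Gm-numbered genes, with counts beside the bars. Btbd35f had 29 of 29 genes in bare windows and Rhox 0 of 33.

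A covered base was found in 25 of the 155 genes, 13 in del/del 1, 19 in del/del 2, 0 in del/fl 1 and 3 in del/fl 2, and 7 genes had one in both del/del libraries. The most covered in both was Mageb17-ps, at 87.3% and 61.2% in del/del 1 and 2, compared with 0% in both del/fl libraries. This is a short gene (chrX:91625353-91626477), and its whole window was at 2.17% and 7.01% in del/del. It lies within Gm14781, which was at 15.8% and 18.8% in del/del, so the same bases count for both genes. Gm2854, a predicted gene with a Spin2-like promoter, was at 32.0% and 50.3% in del/del, compared with 0% in both del/fl libraries. Gm5072 was 67.4% covered in del/del 1 and 0% in the other 3 libraries, and Glod5 26.8% in del/del 2 alone, so these rested on 1 library. Mageb1 had its highest cover in del/fl 2, at 16.9%, compared with 10.1% in del/del 1 and 0% in del/del 2 and del/fl 1. Pcdh11x and Klhl4, in the longest block, had 0.865% and 1.08% cover in del/del 2 and 0% in the other 3 libraries. Dach2, which reaches out of that block at its edge and is not among the 155, had 9.47% and 17.1% of its body covered in del/del 1 and 2 against 0.486% and 2.52% for del/fl 1 and 2. The genes named here were chosen after their values were seen. Low del/fl cover chose the windows, so low del/fl values of the 155 genes are partly fixed by the rule. The same holds for the part of Dach2 in bare windows. Nothing is read from the differences between genotypes in these genes.

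A list of genes known to escape X inactivation in mouse cells, or lying in the X inactivation centre, was read against the windows. Of 24 found in the annotation, 3 touched a bare window, beside 19.8% of all X genes: Kdm6a, Jpx and Ftx, each with 0% of its body covered in all 4 libraries. Xist lay 1 window away and was also at 0% in all 4, as were Ddx3x, Eif2s3x, Kdm5c, Pbdc1 and 5530601H04Rik outside bare windows. Of 30 X-linked genes listed as broadly expressed 1 touched a bare window, Rbm3, and of 14 listed as neural 0 did. The share over all protein-coding genes of the X was 17.1%. These labels were not checked with expression values. Timm17b, Hdac6 and Gata1, of the list labelled broadly expressed and 1 window away, had at most 8.75% of their bodies covered in any library. Cask, also of that list and 1 window away, was at 40.1% to 83.9%.

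The promoters of bare windows were often copies of each other. RefSeq promoters were available for 150 genes in bare windows (160 promoters) and 897 genes in other X windows (1062). A promoter of another gene on any chromosome at 90% identity or more, on the same strand and sharing a run of 31 bases, existed for 87 of the 160 (54.4%), beside 95 of the 1062 (8.95%). A run of 70 bases shared with the promoter of another gene, about the length of the sequenced tags, was found in 102 of the 160 (63.7%), beside 11.6% of the others. How the aligner treated tags that match several places is not given in the sources used here, and its part in the bare state was not tested. Among the bare promoters of genes with other symbols, 4 of 29 (13.8%) had a copy at 90% identity, beside 17 of 742 (2.29%) for such genes in other windows. For genes of listed germline families or numbered Gm the shares were 63.4% in bare windows and 24.4% in others. Read the other way, 87 of 182 X promoters with a copy were in bare windows (47.8%), and 73 of 1040 without one (7.02%). The copied promoters outside bare windows lay in windows with median cover of 79.2% and 85.7% in del/del, compared with 51.1% and 62.9% in del/fl. Promoters without a copy outside bare windows lay at 86.3% and 89.8% in del/del, compared with 61.2% and 69.1% for del/fl.

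In 22 of 23 groups of at least 3 linked promoters, either all or none lay in bare windows. The exception was a group of 5 led by Gm52432, with 2 in bare windows. Several groups are arrays of neighbouring genes, such as the Samt promoters at chrX:154012591-154055291. Their members share windows or blocks and are not independent, so this count carries no test. The largest group linked 19 promoters of Slx and Gm-numbered genes, with a median identity of 90.7%, and all 19 were in bare windows. Median identities of groups were taken over pairs that share a run of 31 bases, so less similar pairs could be left out. A group of 7 Btbd35f promoters (Btbd35f3, Btbd35f4 and Btbd35f7 among them), with a median identity of 97.7%, was bare throughout. So was a group of 3 Samt promoters (99.3%). Groups of 7 Rhox2, 7 Rhox4 and 7 H2al1 promoters had none in bare windows, with median identities of 92.0%, 90.3% and 94.0%. Promoters in bare windows had a median of 3 CpG dinucleotides in 300 bases (quartiles 1 and 5), and the others a median of 8 (quartiles 3 and 17). Median GC content was 44.7% and 52.0%. Gene mix differed, since 131 of the 160 bare promoters were of listed germline families or numbered Gm, compared with 320 of 1062 elsewhere. Among such genes the CpG medians were 3 in bare windows and 4 in others. For genes with other symbols they were 4 and 11. At least 10 CpGs were found in 15 of the 160 bare promoters (9.38%) and in 43.0% of the others. The Suv39h1 promoter shown above, with 37 CpGs, was therefore unlike most bare promoters.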

How the data were processed

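H3K27me3 peak lists of 2 del/del and 2 del/fl libraries were used, and the whole-cell extracts served as the control of each list. The submitters' processing notes name bcl2fastq, Bowtie 0.12.9 and mm10. Per the file headers, MACS2 2.1.0.20140616 made each list from 1 H3K27me3 library and its extract as broad peaks, with down-sampling, a q-value cutoff of 0.05, no more than 1 tag at a position, and background taken locally from 1000 and 10000 bp. The lists nevertheless held broad peaks with q-values up to 0.0983, and these were kept. The authors deposited for each peak the pileup, a signal of tag depth, its fold enrichment, a ratio to the background, and −log10 of its q-value. Only positions, fold enrichment and −log10 q were used here, and the last of these only to filter or describe peaks.

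Peaks of a list were merged where they overlapped, and the percent of each 100-kb window covered was counted with Python 3.11.15, numpy 2.4.6 and pandas 2.3.3. The X ended at its largest gene or peak coordinate (170810027), since no chromosome length was used. Genes and promoters came from RefSeq tables of GRCm38.p6, the build mm10. On X, 2500 genes were used, and 12 with coordinates on a scaffold were left out. Promoters were compared with Biopython 1.88. Cover was compared over all windows with a peak in any library by limma 3.58.1 (R 4.3.3; variance trend and robust fit on, p-values adjusted by Benjamini-Hochberg), and single values by exact permutation of the 4 libraries. The code was tested on simulated lists.

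The windows, gene lists and alternatives were chosen with earlier results of these data known. Named were the 5 longest blocks with their first and last genes and members of each family, the 5 most covered bare windows in del/del, the 3 windows on each side of the threshold, families with at least 3 genes in bare windows, and members of the lists of escape, broadly expressed and neural genes that touched a bare window. Other blocks, families and genes were named after their values were seen.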

Additional observations from a re-analysis of the deposited data

How the results depend on the processing

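Bare windows made up 48.6 Mb, and 38.8 to 58.8 Mb under thresholds from 0% to 5%, other windows, merging, or 1 del/fl library left out, but 162.8 Mb when only peaks with −log10 q of at least 5 were kept. Mean del/del cover in them was 0.874%, 1.92% with those stricter peaks, 0.343%, 0.488%, 1.38% and 2.99% with thresholds of 0%, 0.5%, 2% and 5%, and 0.467% to 1.72% with single libraries left out. In blocks of 10 or more windows, an alternative chosen after the data were seen, it was 0.411%, and without the windows before the first gene 0.931%. The windows that limma called higher numbered 25, but 0 without the variance trend, 12 without robust fitting, 51 with a replicate block, 1 with no filter on windows, 0 with the stricter peaks and 1 to 142 with each library left out. Without del/fl 1 or 2, 8 and 10 were called lower. Same-numbered libraries deviated together with a correlation of 0.199 over X windows and 0.548 over autosomal ones, which with 2 pairs does not show that numbers pair the lines. The cause of these shifts was not tested, except that stricter peaks cover less. Fewer windows under 1% per library in del/del kept that direction under every alternative run for it. The difference next to the blocks, whose place was set by del/fl cover, was 1.41 percentage points with the stricter peaks. With 2 libraries per genotype no exact test can pass 0.05, and without depth per window an uncovered window shows only that no peak was called there.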
